A study of Mus musculus with 2 samples.

Results

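Cadherins and protocadherins were measured as 92 genes, those whose symbol starts with Cdh and a digit or with Pcdh, out of 31053 genes counted in nuclei of the paraventricular hypothalamus (PVH). The PVH is a hypothalamic nucleus that holds the neurons making oxytocin, vasopressin, corticotropin-releasing hormone and thyrotropin-releasing hormone. Members were chosen by symbol alone, and their levels were then read across sets of neurons defined by other genes. Of the 92, 21 reached 200 unique molecular identifiers (UMIs, counted RNA molecules) over those sets, and ratios are given for these. The lowest of them were Pcdh1 with 209 UMIs and Cdh22 with 310, and the nearest genes below the limit were Pcdhga12 with 112 and Pcdhgc4 with 108.

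Nuclei came from 17 mice aged 4 weeks, all carrying Sim1-Cre and a Sun1-GFP reporter that puts GFP on the nuclear envelope of cells with a history of Cre. Sim1 is a transcription factor of the developing PVH, and GFP-positive nuclei were sorted. The groups were 7 Sim1-Cre; Sun1-GFP mice with no change in Otp, 4 that also carried Otpfl/+ (a floxed allele over wild type) and 6 that also carried OtpQ153R/+ (the Q153R substitution over wild type). Otp encodes a homeodomain factor needed for PVH neurons to form. All mice went into 1 droplet library, and hashtag antibodies marked pools whose count rows are named Ctrl, KD and Q153R. KD is not spelled out and is matched to the floxed mice by elimination only. With 1 pool per tag there was no replicate, so neither tags nor sets could be tested. The 95% intervals in parentheses reflect counting alone, with each UMI taken as independent, and hold no spread between mice. KD below always means nuclei labelled KD.

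The library held 6173 barcodes, of which 4904 passed the filters with exactly 1 tag (1966 Ctrl, 1347 KD, 1591 Q153R), at 565 to 29974 UMIs each. A further 1124 carried more than 1 tag and were left out, so doublets of nuclei with the same tag remain in the sets. Otp itself stood at 50.4 CPM (UMIs per 1000000 UMIs) in Ctrl, 82.9 in KD and 114 in Q153R among non-GABAergic nuclei with few glial-marker UMIs. A lower Otp level was therefore not seen in the nuclei labelled KD, and counts that may come from outside a deleted stretch do not check the label. The 6 sets, each nucleus meeting 1 definition only, held 141 nuclei with at least 10 Oxt UMIs, 212 with at least 10 Avp UMIs, 179 with at least 2 Crh UMIs, 336 with at least 2 Trh UMIs, 262 with at least 4 Sst UMIs and 311 with at least 3 UMIs of Gad1, Gad2 and Slc32a1 together (GABA set). Each defining peptide gene was highest in its own set. Sim1 was seen in 92.9% of Oxt, 90.1% of Avp, 63.1% of Crh, 81.0% of Trh, 77.1% of Sst and 23.2% of GABA nuclei.

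Cadherins are transmembrane proteins that bind calcium and join cells by contacts between like molecules. The classical types hold neurons together through catenins, which link them to actin, and type II cadherins are known for combinations that differ between neuron classes. Protocadherins adhere more weakly. The clustered protocadherins give single neurons an identity used in self-avoidance, and the delta protocadherins act in axon sorting and synapse formation.

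**Figure D1:**
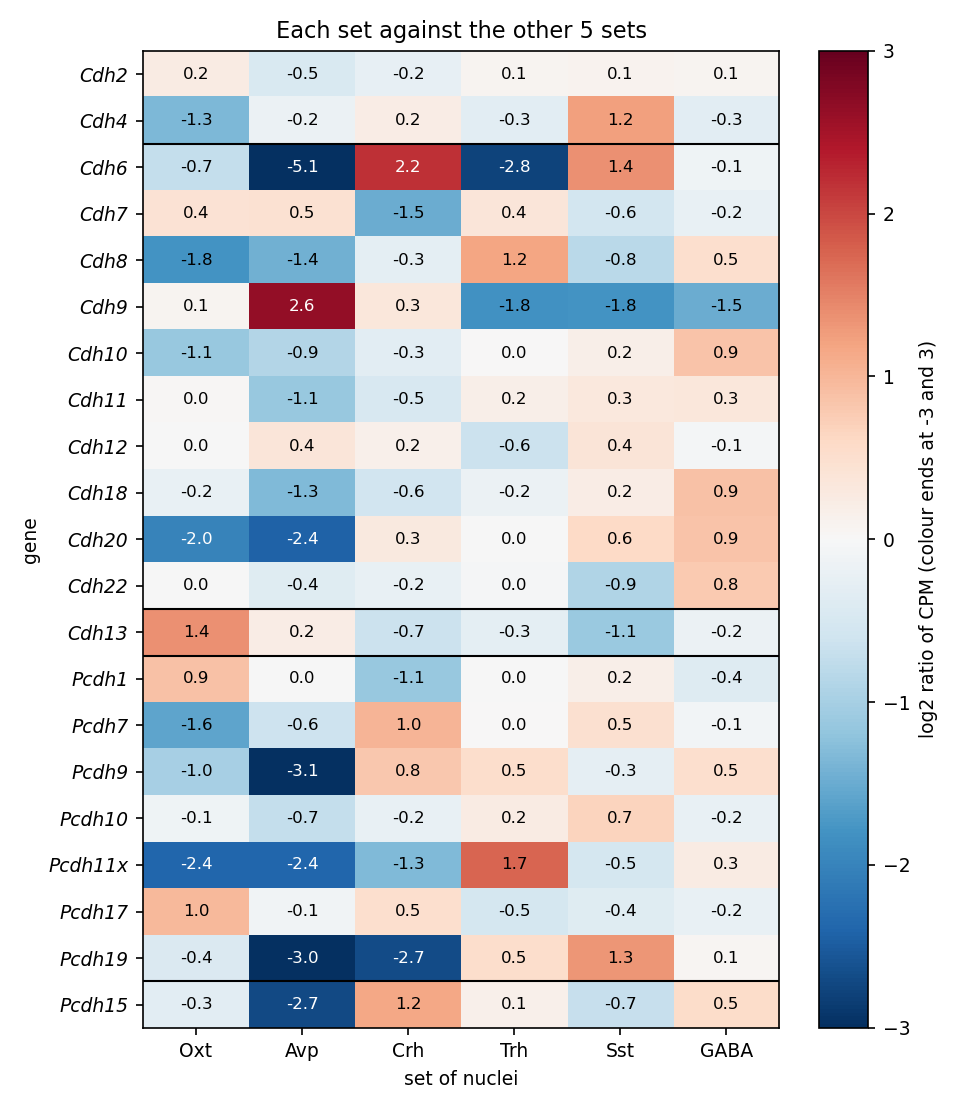
Log2 ratio of the CPM of each of 21 genes in each set (columns) to its CPM in the other 5 sets together. Horizontal lines separate type I cadherins, type II cadherins, Cdh13, delta protocadherins and Pcdh15, from top to bottom. The Avp column holds the lowest value, -5.11 for Cdh6, and the highest, 2.65 for Cdh9.

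Cdh6 and Cdh9, a pair of type II classical cadherins, differed most plainly in the Avp set, where Cdh9 was highest and Cdh6 lowest. In Sst nuclei Cdh6 was high and Cdh9 low, and both were low in Trh nuclei. Pooled over the tags, Crh nuclei had the highest Cdh6 and the second highest Cdh9 level. They are neighbours on chromosome 15 (GRCm38), Cdh6 at 13028701–13173675 on the minus strand and Cdh9 at 16728756–16857094 on the plus strand. The GENCODE vM21 annotation has 0 protein-coding genes in the 3.56 Mb between them. Their upstream sequences are shown first, with those of Pcdh9 and Pcdh19, because these were 4 of the 5 genes with the widest range over the sets. The fifth, Pcdh15, is left out since its RefSeq window lies inside the gene body in GENCODE. Each line gives the 90 bases before the most upstream annotated start, 5′ to 3′ on the gene's strand, from RefSeq's promoter windows of GRCm38.p6. Capitals mark the longest stretch that Cdh6 and Cdh9 share.
Cdh6, chr15:13173676-13173765: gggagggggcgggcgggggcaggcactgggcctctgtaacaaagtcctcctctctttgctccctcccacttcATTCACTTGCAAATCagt
Cdh9, chr15:16728666-16728755: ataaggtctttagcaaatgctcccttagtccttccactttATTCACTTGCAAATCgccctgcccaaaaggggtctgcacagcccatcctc
Pcdh9, chr14:93890680-93890769: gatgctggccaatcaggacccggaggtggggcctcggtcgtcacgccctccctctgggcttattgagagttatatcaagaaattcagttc
Pcdh19, chrX:133688994-133689083: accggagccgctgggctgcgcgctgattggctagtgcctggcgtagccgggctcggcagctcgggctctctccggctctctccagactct

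The shared stretch of Cdh6 and Cdh9, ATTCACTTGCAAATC, is 15 bases long and ends 3 bases before the Cdh6 start and 35 before the Cdh9 start. It occurs on either strand in 2 of 32851 promoter windows of 300 bases (0.00609%), those of these 2 genes. The 8 bases TTGCAAAT within it occur in 0.819% of the windows. Among the other pairs of the 4 pieces, the longest shared stretch was 4 to 7 bases. The stretch was found after the sequences had been read, and a match of letters says nothing of use by a factor. A pair of further motifs was searched on both strands, ACGTG (the core of the element bound by Sim1 with its partner) and TAATTA (a paired homeodomain core), found in 19.6% and 5.29% of all windows. Neither lies in the 300-base windows of Cdh6, Cdh9, Pcdh9 or Pcdh19.

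Cdh6 ranged more widely than the other 20 genes with ratios. Crh nuclei held it at 498 CPM in Ctrl, 481 in KD and 755 in Q153R, and Sst nuclei at 353, 304 and 397 CPM. GABA nuclei had 101, 183 and 323 CPM, Oxt nuclei 118, 89.4 and 109, and Trh nuclei 32.6, 26.0 and 32.6. In Avp nuclei it was at 9.56 CPM in Ctrl, 7.67 in Q153R and 0 UMIs in KD, where 3 UMIs would have been 7.20 CPM. The Crh and Sst sets did not overlap the other sets in any tag, except that Q153R GABA nuclei at 323 CPM were above KD Sst nuclei at 304. The Crh level over all tags was 569 CPM, 99.6 times the 5.71 CPM of the Avp set (48.0–249), which rests on 7 UMIs there. After every nucleus was thinned to 2000 UMIs, a Cdh6 UMI was seen in 38.8% of Crh nuclei (31.5–46.6), 35.3% of Sst (29.4–41.6) and 1 of 194 Avp nuclei. Unthinned shares were 52.0%, 44.3% and 2.83%. Nuclei rich in glial markers, a set defined after the data were seen, gave 13.6% (5.17–27.4; 11.7% unthinned), and the thinned shares of Oxt (16.9%), GABA (16.6%) and Trh nuclei (5.38%) were within that interval.

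Cdh9 stood at 879 CPM in Ctrl, 591 in KD and 591 in Q153R among Avp nuclei, and every other set was lower in every tag. Pooled over the tags, the next were Crh nuclei with 285, 85.6 and 321 CPM and Oxt nuclei with 220, 125 and 255. In KD, however, the Crh value was below those of Oxt and Trh nuclei. Trh nuclei had 53.3, 93.8 and 65.2 CPM, Sst nuclei 51.1, 51.2 and 90.7, and GABA nuclei 67.8, 56.8 and 191. The Avp set was 6.26 times the other 5 sets together (5.68–6.90). Thinned to 2000 UMIs, 71.1% of Avp nuclei held a Cdh9 UMI (64.2–77.4; 87.7% unthinned) against 11.2% of Sst nuclei (7.60–15.8; 18.3% unthinned). The glial-marker nuclei gave 0 of 44, which allows a share of nuclei with a UMI of up to 6.82% (3 counts). The medians before thinning were 5776 UMIs in the Avp nuclei used, 4522 in the Sst nuclei and 2804 in the glial-marker nuclei.

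Counts within single nuclei are given as a description, since few nuclei can hold both genes where one is low. Among 194 thinned Avp nuclei, 138 held Cdh9 alone, 1 held Cdh6 alone and 0 held both. In 249 Sst nuclei, 77 held Cdh6 alone, 17 Cdh9 alone and 11 both, and in 307 GABA nuclei the counts were 40, 19 and 11. Of 170 Crh nuclei, 44 held Cdh6 alone, 26 Cdh9 alone and 22 both.

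**Figure D2:**
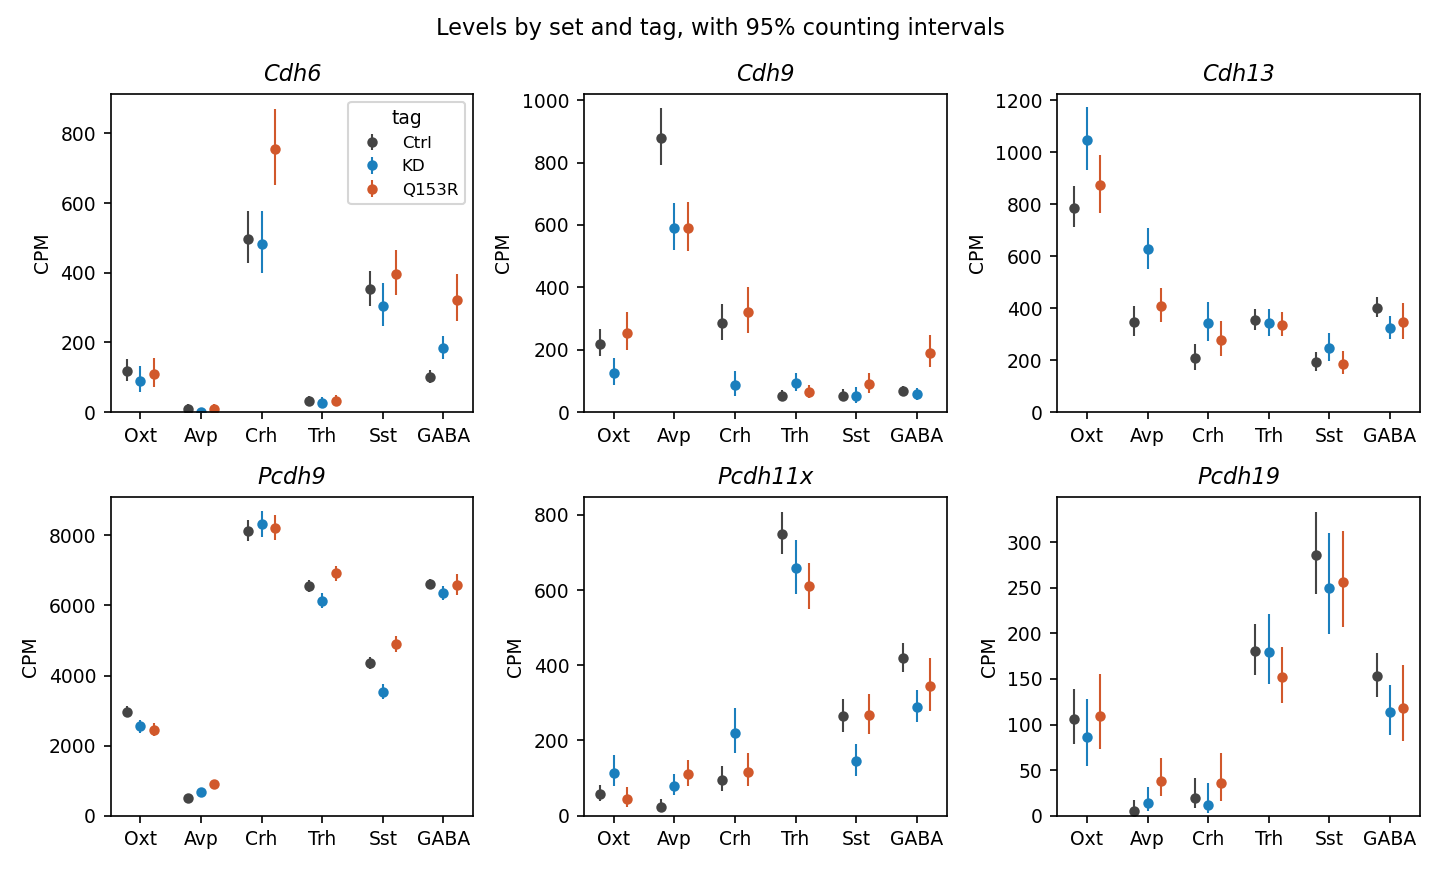
CPM of 6 genes (panels) in the 6 sets (x axis), with 1 point per tag and 95% counting intervals as bars. Cdh9 is highest in Avp nuclei and Pcdh19 in Sst nuclei in each tag, while Pcdh9 is lowest in Avp nuclei in each.

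The other type II cadherins of chromosome 15, Cdh10, Cdh12 and Cdh18, follow Cdh9 on the plus strand in that order. Pooled over the tags, their ranges were narrower than those of Cdh6 and Cdh9. Cdh18, the most abundant type II member with 37343 UMIs in 1-tag nuclei, ran from 1620 CPM in GABA nuclei to 462 in Avp nuclei, 3.51 times (3.21–3.85). Cdh10 ran from 361 CPM in GABA nuclei to 116 in Oxt nuclei, 3.12 times (2.57–3.82). Cdh12 stood at 361 CPM in Sst nuclei and 203 in Trh nuclei, 1.78 times apart (1.56–2.04), but its tags differed within sets: 287, 436 and 142 CPM in Oxt nuclei and 452, 146 and 488 in Avp nuclei for Ctrl, KD and Q153R.

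Among the remaining type II genes, Cdh8 was highest in Trh nuclei of the 6 sets. It was at 568 CPM in Ctrl, 579 in KD and 510 in Q153R Trh nuclei, against 122, 100 and 61.8 in Oxt nuclei and 90.8, 142 and 159 in Avp nuclei. The Trh values were above those of each other set in all tags. Pooled over the tags, nuclei that met none of the 6 definitions were at 560 CPM, near the Trh level of 553. Cdh20, pooled over the tags, was at 15.5 CPM in Avp and 20.1 in Oxt nuclei and at 72.6 to 112 CPM in the other 4 sets. The tags disagreed on Crh nuclei, with 153.6 CPM in Ctrl, 32.6 in KD and 48.2 in Q153R, so that the KD value was near those of KD Avp (31.2) and Oxt nuclei (35.8). It was 1182 CPM in the 94 glial-marker nuclei, and Cdh10 at 903 CPM was also higher there than in any of the 6 sets, while Pcdh11x at 744 CPM was near its Trh level of 684. Summed astrocyte markers were at 5.81 to 37.8 CPM in the 6 sets and 2874 CPM in the glial-marker nuclei. Without nuclei that held 3 or more glial or oligodendrocyte-marker UMIs, the called ratios of Cdh20 and Pcdh11x kept their side of the 2-fold limits. Cdh7 was lowest in Crh nuclei at 39.0 CPM, against 73.0 to 133 elsewhere. Cdh11 was at 58.7 CPM in Avp nuclei and 88.7 to 144 elsewhere when pooled. By tag its Avp level was 19.1 CPM in Ctrl, 96.0 in KD and 61.4 in Q153R, and in KD the Crh set at 65.2 CPM was lower. Cdh22 stayed between 21.2 and 54.0 CPM.

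Of the type I classical cadherins, Cdh2 (N-cadherin, the general neural cadherin) had the narrowest range of the 21 genes when tags were pooled, from 342 CPM in Avp nuclei to 523 in Oxt nuclei, 1.53 times (1.35–1.74). Within Crh nuclei it differed by tag, with 273 CPM in Ctrl, 599 in KD and 337 in Q153R. Cdh4 (R-cadherin) was at 763 CPM in Ctrl, 1021 in KD and 781 in Q153R Sst nuclei, and at 187, 186 and 167 CPM in Oxt nuclei. Its Sst values lay above those of all other sets in each tag, and its Oxt values below. The Sst set was 2.37 times the other sets (2.20–2.54) and the Oxt set 0.395 times (0.339–0.457). Cdh1 (E-cadherin) and Cdh3 (P-cadherin), the epithelial members, had 2 and 8 UMIs in all 1-tag nuclei, and Cdh15 of muscle had 21. Cdh5, the cadherin of vessel walls, had 5 UMIs, and Cdh16 of kidney had 0, which allows up to 0.108 CPM. Other members outside the clusters and under the filter were Pcdh8 with 262 UMIs, Pcdh20 with 232, Cdh19 with 204, Pcdh18 with 161, Cdh23 with 102, Cdh24 with 92, Cdh17 with 9, Cdh26 with 4 and Pcdh12 with 3. Of the Cdh19 UMIs, 63 lay in the glial-marker nuclei, at 287 CPM.

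Cdh13 (T-cadherin), which is anchored by a lipid and lacks a cytoplasmic part, was the member past 2-fold in Oxt nuclei. It stood at 787, 1048 and 873 CPM there in Ctrl, KD and Q153R, above the highest value of any other set and tag, 627 CPM in KD Avp nuclei. Sst nuclei were lowest with 192, 247 and 187 CPM, although Ctrl Crh nuclei at 208 CPM overlapped them. The Oxt set was 2.60 times the others (2.41–2.81), and Pcdh17 was just under the limit there at 1.95 times (1.82–2.10). A Cdh13 UMI was seen in 72.1% of thinned Oxt nuclei (63.7–79.4; 91.5% unthinned), 24.5% of Sst nuclei (19.3–30.3; 42.0% unthinned) and 31.8% of glial-marker nuclei (18.6–47.6; 33.0% unthinned), so the Sst share is not above that of glial-marker nuclei.

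Delta protocadherins made up 57.1% of the 450360 UMIs of members in 1-tag nuclei, and Pcdh9 alone held 154170. Divided by gene length, which assumes that UMIs scale with length, Pcdh9 (632 CPM per 100 kb), Pcdh17 (569) and Pcdh7 (540) led, while Cdh12, among the longest genes, was at 35.8 CPM per 100 kb. Among the 35 members outside the clusters, UMIs and gene length went together (Spearman's rho 0.77 across genes that share 1 library, and genes are not independent replicates). Intronic reads of nuclei may add to this, and whether introns were counted is not given in the sources used here.

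Pcdh9 ran from 8209 CPM in Crh nuclei to 691 in Avp nuclei, 11.9 times (11.1–12.8). The Avp values were 519 CPM in Ctrl, 663 in KD and 905 in Q153R, below those of every other set. A few nuclei with many Pcdh9 UMIs held most of these UMIs, and with a minimum of 50 Avp UMIs per nucleus the levels were 264, 225 and 1284 CPM. The Oxt values of 2969, 2547 and 2451 were the next lowest. The Crh values were 8135, 8315 and 8209 CPM, the highest in each tag. Pcdh15, a tip-link protein of hair cells grouped here apart from the delta family, had a similar order: 3853, 2467 and 3236 CPM in Crh nuclei and 194, 298 and 371 in Avp nuclei. In KD its Crh and GABA values, 2467 and 2477 CPM, could not be ordered. Pcdh7 was at 4820, 4241 and 3986 CPM in Crh nuclei and at 907, 808 and 844 in Oxt nuclei, 5.10 times apart over all tags (4.74–5.49).

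The X-linked delta members Pcdh11x and Pcdh19 were highest in other sets. Pcdh11x was at 750, 659 and 610 CPM in Trh nuclei against 57.0, 115 and 43.6 in Oxt nuclei and 23.9, 79.2 and 110 in Avp nuclei. Trh nuclei were above the other 5 sets in every tag, 3.35 times these together (3.10–3.61). Nuclei that met none of the 6 definitions held Pcdh11x at 676 CPM, near the pooled Trh level of 684. Pcdh19, which adheres together with N-cadherin and is known for a human X-linked epilepsy, was at 286, 250 and 256 CPM in Sst nuclei. Its Avp values were 4.78, 14.4 and 38.4 CPM and its Crh values 19.9, 12.2 and 36.1. Here 43.5% of the Avp set's UMIs came from 1 nucleus, and the level was 10.7 CPM without it, against 18.8 CPM with it. Pcdh17 was highest in Oxt nuclei in each tag (891, 1030 and 1055 CPM) at 2.34 times its Trh level (2.13–2.56). Pcdh10 ranged from 105.2 to 236 CPM and Pcdh1 from 11.8 to 41.1 CPM over the sets.

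The clustered protocadherins counted 57 genes but few UMIs: 693 for the alpha, 1599 for the beta and 1796 for the gamma cluster, 0.154%, 0.355% and 0.399% of the members' UMIs. None of the 57 reached 200 UMIs over the sets. Genes within the alpha and gamma clusters share their last exons, so reads there may not be assigned to 1 gene, and levels by set are given as sums. Beta sums ran from 28.5 CPM in Avp nuclei (19.9–39.7) to 58.0 in GABA nuclei (48.0–69.6), gamma sums from 43.0 in Oxt nuclei (31.4–57.6) to 78.5 in Trh nuclei (66.8–91.5), and alpha sums from 17.9 in Avp nuclei (11.2–27.2) to 28.6 in Trh nuclei (21.8–36.9). The alpha intervals of the 6 sets overlap.

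Counted over the 21 genes, 11 were at least 4 times higher in their highest than in their lowest set, where 12.4% of the 6294 genes with 200 UMIs were. The median range was 4.29 times for members and 1.84 times for all genes. The 21 genes are long, with a median of 220.4 kb, and the background was not matched for length or level. The set with most low members was Avp: 9 genes were at or under 1/2 of the other 5 sets (background 8.44%), namely Cdh6, Pcdh9, Pcdh19, Pcdh15, Cdh20, Pcdh11x, Cdh8, Cdh18 and Cdh11, and Cdh9 alone was at or over 2 times (background 2.14%). Oxt nuclei had 6 low members, Cdh20, Cdh4, Pcdh11x, Pcdh7, Cdh8 and Cdh10 (background 4.94%), and 1 high, Cdh13 (2.34%). Of the low ones, Cdh10 at 0.456 times stayed past the limit under 8 of 11 alternative settings and reached 0.632. Cdh20 and Cdh4 stayed past it under 10 of 11, and were at 0.519 and 0.513 without a tag filter. The 11 settings include gene filters of 50 and 500 UMIs, which by their design leave every ratio unchanged. The median log2 ratio of members was -0.71 in Avp nuclei, against -0.03 for all genes, and -0.22 in Oxt nuclei, against 0.00.

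Crh nuclei held a median of 1806 genes, the fewest of the 6 sets (the others 2066 to 2927), and its part in the ratios was not tested. Crh nuclei had 3 high members, Cdh6, Pcdh15 and Pcdh7 (background 4.77%), and 4 low, Pcdh19, Cdh7, Pcdh11x and Pcdh1 (12.2%). Of these, Pcdh7 at 2.04 times was between 1.75 and 1.99 under 4 of 11 alternatives, counting the gene filters of 50 and 500 UMIs that change no ratio. Pcdh1, at 0.452 times (0.214–0.849), was at 0.503 to 0.639 under 3 of the 11 alternatives, and Cdh7 was at 0.701 with doubled definition thresholds. Trh nuclei had Pcdh11x and Cdh8 high (1.45%) and Cdh6 and Cdh9 low (2.21%). Sst nuclei had Cdh6, Pcdh19 and Cdh4 high (1.48%) and Cdh9 and Cdh13 low (3.59%). GABA nuclei had 0 members past 2-fold higher (1.19%) and Cdh9 alone lower (1.95%). Their highest ratios were those of Cdh10, Cdh20, Cdh18 and Cdh22, all under 2-fold. When nuclei with more than 1 tag were let in, the count of members past 4-fold was 7 in place of 11, and that of low members in Avp nuclei was 6 in place of 9, with Cdh8 at 0.546, Cdh11 at 0.635 and Cdh18 at 0.503 times the other sets. The share of all genes was not computed under that setting, so these lower counts have no background.

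Magnocellular neurons of the PVH make oxytocin or vasopressin, but the Oxt and Avp sets were defined by UMIs of these genes and not by cell size. The 2 sets were compared directly over the 14 members with 200 UMIs in the pair. Pcdh15 was 4.73 times higher in Oxt nuclei (4.21–5.34) and Pcdh9 3.94 times (3.65–4.26), both with the same direction in the 3 tags, where 6.17% of 2220 genes were 2-fold higher. Cdh9 was at 0.296 times (0.253–0.344) and Cdh4 at 0.476 times (0.400–0.565) the Avp level, where 3.78% were at or under 1/2. Below the filter, a further pair had wide ratios: Cdh6 with 18.9 times (8.89–48.1, from 113 and 7 UMIs) and Pcdh19 with 5.40 times (3.42–8.89). The pooled intervals of Cdh7 (0.992, 0.785–1.253) and Cdh10 (0.834, 0.655–1.06) held equal levels, but by tag the Cdh7 ratio was 1.08 in Ctrl, 1.49 in KD and 0.466 in Q153R.

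**Figure D3:**
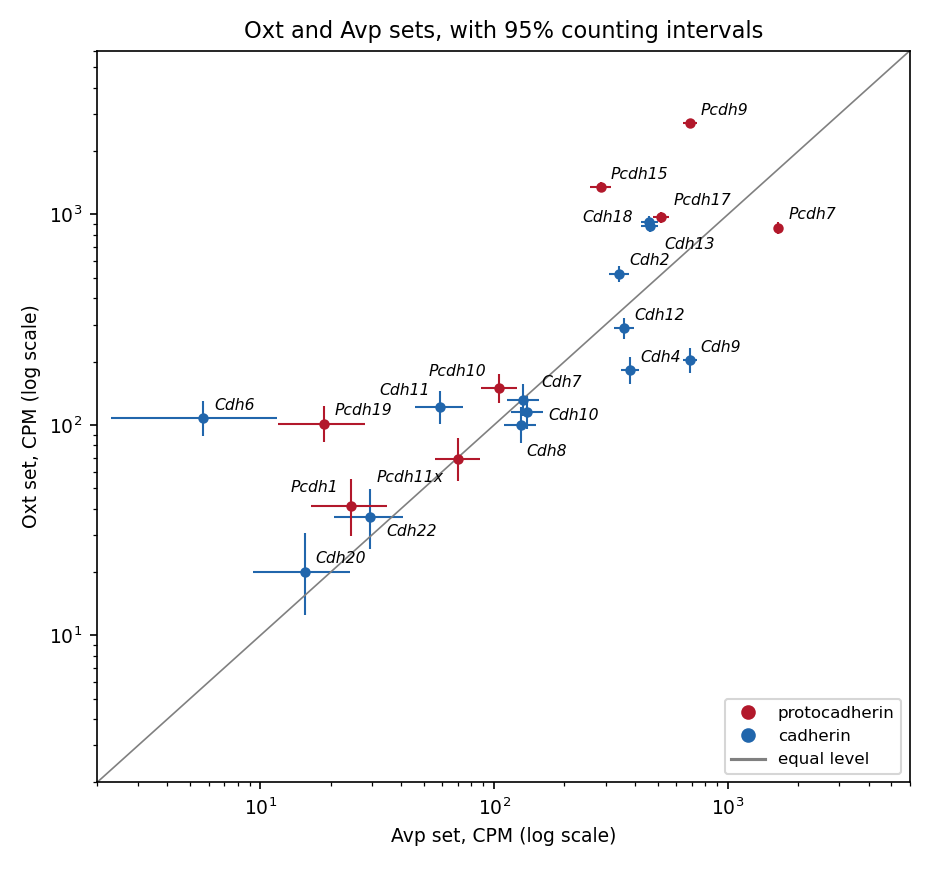
CPM of 21 genes in the Avp set (x axis, log scale) and the Oxt set (y axis, log scale), with 95% counting intervals. Pcdh9, Pcdh15, Pcdh19 and Cdh6 lie above the line of equal levels, and Cdh9, Cdh4 and Pcdh7 below it.

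Ranges of the partners of cadherins are read against all genes, of which 12.4% passed 4-fold with a median of 1.84 times. Of 10 catenins and binding partners, 8 passed the filter and 1, Vcl (vinculin, which joins catenins to actin), exceeded 4-fold, from 18.8 CPM in Sst to 98.1 in Crh nuclei. Of the catenins in the list, Ctnna2 (alpha-N-catenin) at 1387 to 2649 CPM and Ctnnb1 (beta-catenin) at 32.6 to 59.0 CPM stayed within 2-fold. The alpha-catenin genes Ctnna1, at 2.66 times (1.435–5.23), and Ctnna3, at 2.30 times (2.01–2.64), did not. The list's median range was 1.89 times. Among 23 other genes of the superfamily 8 passed, with a median range of 2.84 times. Of these, 3 exceeded 4-fold. Dchs2, a large Dachsous protein, ran from 71.0 CPM in GABA to 2.37 in Crh nuclei. That low value rests on very few UMIs, and the interval of the ratio was wide (8.17–250.5). Fat1, a giant atypical cadherin, ran from 104 CPM in Crh to 16.3 in Avp nuclei, and Clstn2, a calsyntenin, from 551 in Sst to 99.5 in Avp nuclei. Of 16 protocadherin partners and factors of promoter choice, 12 passed and 0 exceeded 4-fold, with a median range of 1.62 times. Ctcf, which directs promoter choice in the clusters, was at 35.3 to 57.9 CPM.

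Tags were compared over nuclei outside the GABA definition and with under 3 glial-marker UMIs: 1688 Ctrl, 1171 KD and 1482 Q153R nuclei. Most members differed little. None of 23 members reached 1.5 times or 1/1.5 between KD and Ctrl, where 0.237% of 8872 genes were higher and 0.564% lower, or between Q153R and Ctrl, where 0.291% of 8925 were higher and 0.392% lower. The ratios ran from 0.686 to 1.246 in the first comparison and from 0.778 to 1.27 in the second, where the highest was Pcdhgc4 (0.976–1.66), a clustered gene whose reads may not be assigned to it alone. Pcdh9, the most abundant, was at 5336 CPM in Ctrl, 5383 in KD and 5604 in Q153R, which gave 1.01 (0.996–1.02) for KD and 1.05 (1.04–1.06) for Q153R against Ctrl. Pcdh7 was at 2354, 2161 and 2176 CPM, or 0.918 (0.900–0.937) and 0.925 (0.906–0.943) times Ctrl.

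Between Q153R and KD, Cdh6 was 1.66 times higher (1.52–1.81), 1 of 22 members, where 0.586% of 8355 genes were higher. No member was lower by 1.5 times (background 0.335%). Cdh6 was at 164 CPM in Ctrl, 112 in KD and 187 in Q153R, so KD stood lowest, at 0.686 times Ctrl (0.630–0.747). The ratio was 1.49 with tag thresholds 1.5 times higher. It was 1.83 times (1.65–2.03) among nuclei outside the peptide sets, with 102 CPM in KD and 185 in Q153R. These 896 KD and 1104 Q153R nuclei met no definition or more than 1 peptide definition. The ratio was 1.39 times (1.09–1.77) in Crh and 1.21 times (0.936–1.58) in Sst nuclei. In the nuclei that met none of the 6 definitions, the difference lay in few nuclei. There 6 of 892 KD nuclei held at least 10 Cdh6 UMIs and 14.2% of the UMIs, while 26 of 1097 Q153R nuclei held 42.9%. Thinned shares of nuclei with a Cdh6 UMI were 15.8% (13.7–18.0) in Ctrl, 13.5% (11.2–16.0) in KD and 18.2% (15.9–20.8) in Q153R, and unthinned shares 24.1%, 22.2% and 24.3%.

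Smaller ratios outside counting error included Cdh4, with 369 CPM in Ctrl, 460 in KD and 444 in Q153R, 1.246 (1.19–1.31) and 1.20 (1.15–1.26) times Ctrl. Cdh20 was at 104.8, 79.4 and 81.5 CPM, or 0.758 (0.683–0.840) and 0.778 (0.702–0.861). Among nuclei with at least 3 Xist UMIs and no Y-linked UMI, its ratios were nearer to equal, at 0.864 (0.766–0.973) and 0.863 (0.749–0.994). Over all nuclei compared between tags, oligodendrocyte markers summed to 153.1, 112.6 and 76.5 CPM. The other glial markers summed to 51.1, 50.3 and 47.1 CPM, after nuclei with 3 or more of their UMIs had been left out. Nuclei with oligodendrocyte markers were kept in the ratios above. Leaving them out was among the alternatives run for the tags, and the Cdh20 ratios it gave are not reported here. The part of either group of markers in the Cdh20 ratios was not tested further. Cdh9 was at 146 CPM in Ctrl, 143 in KD and 177 in Q153R.

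**Figure D4:**
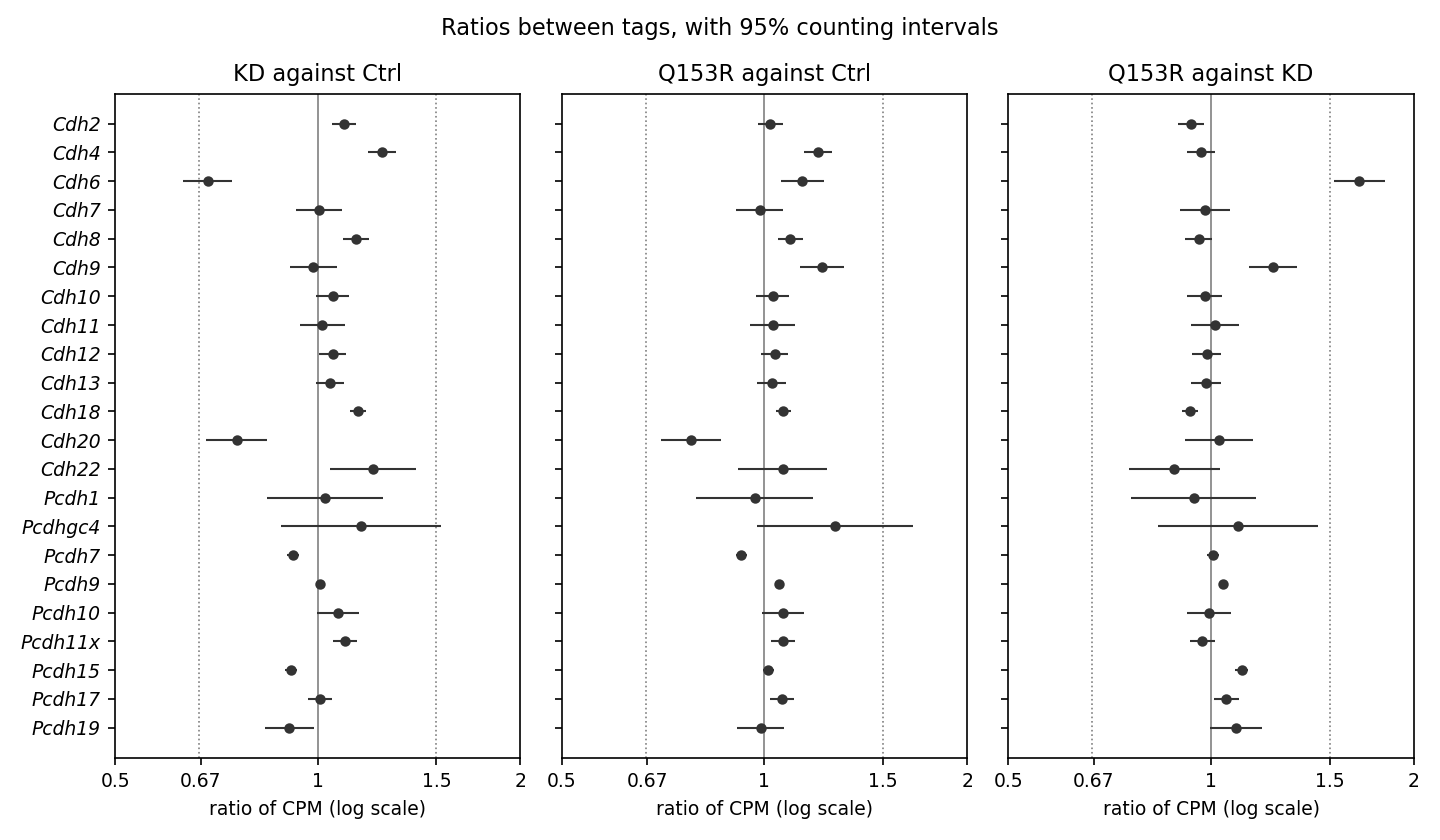
Ratio of CPM between tags (x axis, log scale) for the 22 members with 200 UMIs in all 3 comparisons, with 95% counting intervals. Solid lines mark equal levels and dotted lines 1.5 times and 1/1.5. Cdh6 in Q153R against KD, at 1.66, is the point beyond a dotted line.

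Within sets, several members passed 1.5-fold between tags, on few nuclei, and those described were chosen after their values were seen. The share of all genes past 1.5-fold within a set was not computed. These ratios therefore have no background and cannot be read as particular to members. In Crh nuclei with the same limit on glial markers, Cdh9 in KD was at 0.288 times Ctrl (0.169–0.469), Cdh20 at 0.140 times (0.0365–0.388), Pcdh11x at 2.68 times (1.68–4.37) and Cdh2 at 2.21 times (1.69–2.89). The Avp set is given in more detail, over 69 Ctrl, 65 KD and 76 Q153R nuclei. Cdh12 was at 452 CPM in Ctrl, 148 in KD and 488 in Q153R, so KD nuclei held 0.328 times the Ctrl level (0.241–0.441). A Cdh12 UMI was present in 44 Ctrl, 24 KD and 48 Q153R nuclei (63.8%, 36.9% and 63.2%), and in 42.9% (30.5–56.0), 21.3% (11.9–33.7) and 48.5% (36.2–60.97) after thinning. The KD value was also lowest at a minimum of 20 Avp UMIs (444, 120 and 492 CPM) and of 50 (360, 112 and 363). Other sets did not share this: KD was at 1.49 times Ctrl in Oxt (1.15–1.93), 1.41 times in Trh (1.10–1.80) and 0.895 times in Sst nuclei (0.704–1.13). Among nuclei outside the peptide sets it was at 1.05 times (0.992–1.10). Cdh13 was 1.80 times higher in KD than in Ctrl Avp nuclei (1.46–2.22) and Cdh4 1.79 times (1.42–2.26), whereas Cdh9 was lower in KD (0.669, 0.566–0.789) and in Q153R (0.672, 0.567–0.794).

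Pcdh9 and Pcdh15 were higher in Q153R than in Ctrl Avp nuclei, 1.75 times (1.47–2.08) and 1.92 times (1.45–2.55). At a minimum of 20 Avp UMIs the Pcdh9 levels were 444 CPM in Ctrl, 293 in KD and 915 in Q153R. At a minimum of 50 Avp UMIs the ratios were 4.86 (3.78–6.30) and 6.16 (3.92–10.0), from 51 Ctrl and 35 Q153R nuclei. The share of nuclei with a Pcdh9 UMI did not follow: 42 Ctrl, 35 KD and 38 Q153R nuclei held one, which was 34.9% (23.3–48.0), 36.1% (24.2–49.4) and 36.8% (25.4–49.3) after thinning. Instead, 9 Q153R nuclei with at least 10 Pcdh9 UMIs held 80.2% of the UMIs, against 6 KD nuclei with 71.2% and 3 Ctrl nuclei with 53.5%. For Pcdh15, 6, 3 and 1 such nuclei held 72.4%, 62.3% and 43.2%. The median Avp count per nucleus was 43.5 UMIs in Q153R, 65 in Ctrl and 66 in KD.

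**Figure D5:**
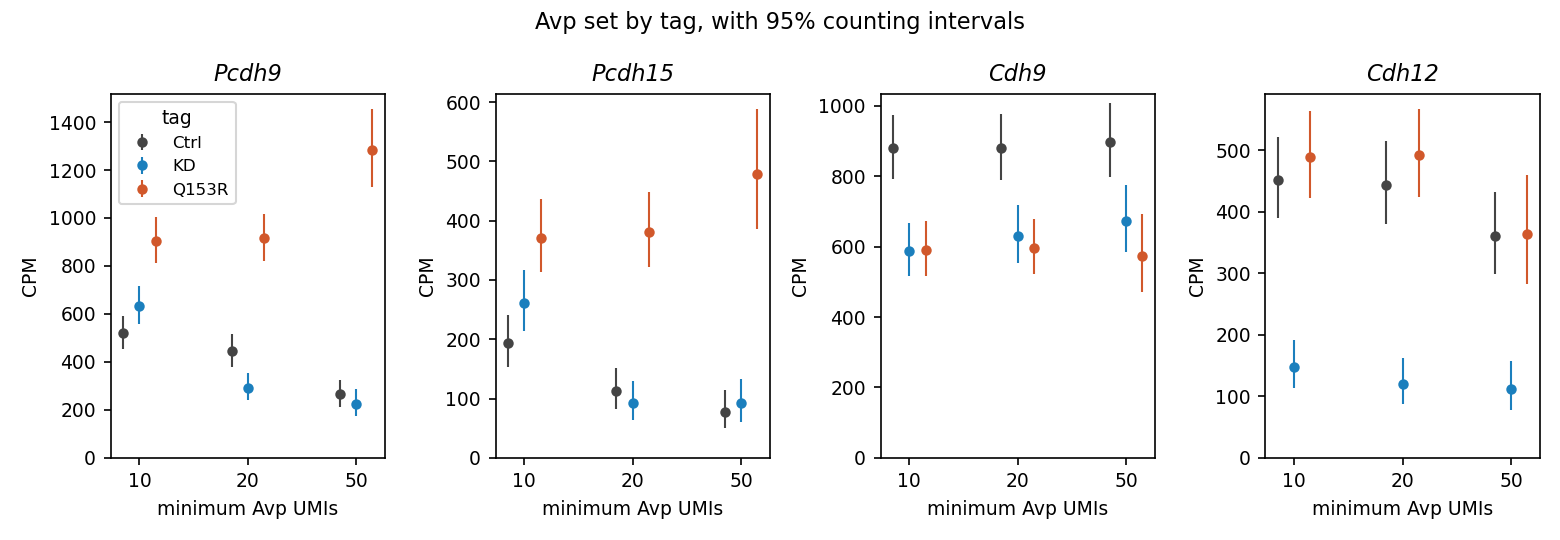
CPM of 4 genes (panels) in Avp nuclei by tag, at a minimum of 10, 20 and 50 Avp UMIs per nucleus (x axis), with 95% counting intervals. KD is lowest for Cdh12 at each minimum, Ctrl is highest for Cdh9, and Q153R is highest for Pcdh9 and Pcdh15.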

How the data were processed

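Nuclei of 17 mice were sequenced in 1 gene-expression library, and the hashtag library was read only through its rows in the deposited count matrix. The authors deposited raw UMI counts per gene and barcode, made with Cell Ranger 6.0.0 on mm10 per the submitters' processing notes, while the matrix header names 7.0.0. For the annotation and the intron setting, the sources used here give nothing. A barcode was kept with 500 or more genes and a mitochondrial share under 5% when exactly 1 tag reached its threshold (105 Ctrl, 61 KD or 37 Q153R UMIs). Sets took nuclei that met exactly 1 definition, and 82 nuclei that met more were left out. Levels in CPM are the UMIs of a set over all its gene UMIs, with Poisson, conditional binomial and Clopper-Pearson intervals at 95%. These were computed with Python 3.11.15, numpy 2.4.6 and scipy 1.17.1, and the ratio code was tested on simulated data. Genes needed 200 UMIs over the sets or tags compared. Limits for counting genes were 2-fold for a set, 4-fold for a range and 1.5-fold for tags. Nuclei were thinned to 2000 UMIs for shares.

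Glial-marker nuclei had at least 3 astrocyte, precursor or microglial marker UMIs, at least 20 such UMIs per 10000 and 0 Sim1 UMIs. Any member with 200 UMIs could be named, with the 4 highest and 2 lowest ratios of each set, members past the tag limit and the 2 most abundant, and members under 200 UMIs where they mark another cell type or complete a role group. Cdh12 and Cdh13 within Avp nuclei, with the stricter Avp minimums, were singled out after their values were seen. Members, lists and definitions were chosen with earlier results of these data known. Coordinates are from GENCODE vM21 and RefSeq, both of GRCm38. RefSeq promoter windows were used for 22 members.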

Additional observations from a re-analysis of the deposited data

Results flagged for a closer look

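Cdh12, Q153R against KD, differed in opposite directions in neighbouring sets. In Avp nuclei Q153R was at 488 CPM and KD at 148, 3.30 times (2.45–4.48). In Oxt nuclei Q153R was at 146 CPM and KD at 419, 0.348 times (0.235–0.505). Each tag is 1 pool, so the difference between the sets was not tested, and no share of all genes within these sets was computed. In Oxt nuclei 4 of 34 KD nuclei with at least 10 Cdh12 UMIs held 65.2% of the KD UMIs, and 0 of 46 Q153R nuclei had that many. In Avp nuclei 4 of 76 Q153R nuclei held 30.9% and 0 of 65 KD nuclei had that many.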

How the results depend on the processing

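Alternatives covered the definitions of sets, filters, library size and scale, with 11 for the sets and 9 for the tags. The gene filters of 50 and 500 UMIs, among both, can change counts of members but no single ratio. No called ratio crossed to the other side of equal levels. Of the single ratios and shares, 157 moved outside their main interval and 605 did not. Of the counts of members, 19 moved by more than 1.5-fold and 189 did not. Called ratios not named above also fell inside the 2-fold limits without a tag filter. These were Cdh8 in Trh nuclei at 1.735, Pcdh15 in Crh at 1.84, Pcdh11x in Crh at 0.698 and Cdh13 in Sst nuclei at 0.574. Doubled definition thresholds gave 2 members high in Oxt, 1 high in GABA and 2 low in Crh nuclei. Leaving out nuclei above the 95th percentile of UMIs gave 2 high in Oxt nuclei, and nuclei meeting several definitions gave 1 low in Sst. Without a tag filter, which lets in nuclei with more than 1 tag, 7 members passed 4-fold, 6 were low in Avp, 3 low in Oxt, 1 high and 1 low in Crh, 1 high in Trh and 1 low in Sst. For tags, nuclei with Xist and no Y-linked UMI gave 1 member lower in KD than in Ctrl, and tag thresholds 1.5 times higher gave 0 higher in Q153R than in KD. A filter of 50 UMIs gave 1 higher and 3 lower in KD against Ctrl, 1 and 2 in Q153R against Ctrl, and 2 and 1 in Q153R against KD. Shares over all genes were not computed under the alternatives, so these counts of members have no background. The Avp ratio of Cdh9 ranged from 5.28 to 8.34 and the Crh ratio of Cdh6 from 3.14 to 4.71. No paired analysis was possible because each tag is 1 pool. Depth limits genes under 200 UMIs, the clustered families among them.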
